A study of Mus musculus with 6 samples.

Results

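The genes described here encode integrin subunits, laminin chains and the proteins that tie laminins into the basement membrane. They were chosen by name as the rows of the deposited count table whose gene symbol belongs to a fixed list of 37 genes, which comprises 23 integrin subunits, 10 laminin chains and 4 network linkers. All 37 were found among the 24421 genes of the table. RNA was sequenced from primary endothelial cell cultures of the mouse stria vascularis, the vascularised epithelium of the cochlear lateral wall. There were 3 cultures of *Nhe6*-knockout mice (strain Nhe6 KO) and 3 of wildtype mice, with strain background C57BL/6N given for all 6. The study's methods name the C57bl6/j background instead, and a substrain difference between the genotypes, if there was one, cannot be told apart from the genotype. All mice were 10 to 12 postnatal days old, and no culture was treated. The question was how gene expression in these cells differs between the genotypes. Per the study's methods, stria vascularis was dissected along with spiral ligament, the cells were passaged on collagen-coated plastic and sorted by fluorescence, and several mice were pooled per genotype, so 1 library stands for 1 pooled culture and not for 1 animal. Levels in such cells were therefore measured on a matrix supplied by the dish. The p-values below set the difference between genotypes against the spread between these cultures, and take the 3 cultures of a genotype as independent.

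Basement membranes are thin sheets of matrix under endothelial and epithelial cells and around pericytes. Laminins, which are heterotrimers of 1 alpha, 1 beta and 1 gamma chain, polymerise on the cell surface, and nidogens, perlecan and agrin link that polymer to the collagen IV network and to the cell. Integrins are heterodimers of 1 alpha and 1 beta subunit that bind laminins, collagens or RGD-containing proteins such as fibronectin outside the cell and couple them to the actin cytoskeleton inside. In capillaries of the stria vascularis the endothelium and its pericytes share a basement membrane.

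The libraries held 25587097 to 29126232 reads on genes. A normalized count is the read count scaled to the mean effective library size, and log2 fold changes are given as *Nhe6*-knockout over wildtype. Wildtype replicate 2 stood apart from the other 5 libraries, with a score of 106 on the first principal component (50.2% of the variance) against -28.5 to -6.52. Knockout replicates 1 and 2 were closer to each other than any other pair (chi-square per degree of freedom 4.91, against 90.1 to 398 for the other pairs within a genotype), although still beyond sampling noise. The labelled cell type was matched by its markers in part. Of 15 endothelial markers, 6 averaged at least 100 normalized counts, among them *Emcn* (15227 ± 4643 in the knockout and 9513 ± 7911 in the wildtype, mean ± SD, n = 3 each) and *Eng* (4725 ± 317 and 2792 ± 1962). In wildtype replicate 2 *Emcn* was at 409, against 13407 and 14723 in wildtype replicates 1 and 3. *Cldn5* and *Robo4* had 0 reads in all 6 libraries. In a library *Vwf* had at most 25 reads, *Plvap* 16, *Erg* 15, *Pecam1* 8 and *Tie1* 2. *Cdh5*, VE-cadherin of endothelial junctions, had 219.8, 232 and 179 in the knockout and 2508, 5198 and 3468 in the wildtype cultures and fell, with a log2 fold change of -4.15 ± 0.31 (SE, adjusted p = 0.0133). Also lower in every knockout culture was *Flt1*, at 577.5, 561 and 378 against 919.8, 3174 and 1149.7 in the wildtype cultures. Its log2 fold change was -1.79 ± 0.50 (SE, adjusted p = 0.242). All 10 fibroblast markers averaged at least 100. In these cultures fewer cells of a type and less RNA per cell cannot be told apart.

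Across the 37 genes, *Itgb1* was by far the most abundant per length, at 845 reads per kilobase of exon scaled to library size (RPKM) in the knockout and 776 in the wildtype cultures on average. The linker *Nid1* followed, with a mean RPKM of 319 and 218, and then the integrin alpha subunit *Itga8* and the linker *Nid2*, whose order differed between genotypes. No member passed the test between genotypes, while 6 members lay higher in every knockout culture than in every wildtype culture and 1 lay lower. Laminin beta 1 and laminin gamma 3 had the smallest p-values. After the filter on low counts, 32 members were tested and 5 were not. By edgeR's quasi-likelihood test with Benjamini-Hochberg adjustment over all genes, 0 of the 32 had an adjusted p under 0.05, against 9 of 13479 genes (0.0668%, with 0.0297% higher and 0.0371% lower). At an unadjusted p under 0.05, 4 members (*Lamb1*, *Lamc3*, *Itga4* and *Agrn*) were higher and 1 (*Itgb3*) was lower, against 11.8% of all genes, 6.14% higher and 5.71% lower. DESeq2's Wald test called 2 members, *Lamb1* and *Lamc3*, both higher, with 4.69% of all genes called, 2.85% higher and 1.83% lower. limma-voom called 0 members. Without wildtype replicate 2, edgeR called *Lamc3* alone of the 33 members then tested, with 2.88% of all genes called, 1.62% higher and 1.26% lower.

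The genotypes did not overlap for 7 of the 32 tested members (21.9%). The share of all tested genes was 19.9%, so non-overlap was about as frequent in this group as in the background. In the direction of higher in the knockout the count was 6 of 32 (18.8%), against 10.3% of all genes, and in the other direction 1, against 9.57%. The 6 were *Lamb1*, *Lamc1*, *Lamc3*, *Lama3*, *Agrn* and *Itga4*, and *Itgb3* was the one lower. Without wildtype replicate 2, a comparison added after the data were seen, 15 members (46.9%) did not overlap, 13 of them higher and 2 lower, against 38.3% of all genes, 19.3% higher and 19.1% lower. Log2 fold changes were above 0 for 22 of the 32 and below 0 for 10, with a median of 0.32 beside a median of -0.02 over all genes. Without wildtype replicate 2 those medians were 0.54 and 0.00. That culture was the highest or the lowest of the 6 for 18 of the 32 members (56.2%), and for 53.3% of all genes. Knockout replicate 3 was the highest or lowest for 11 members (34.4%), against 25.1% of all genes.

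**Figure D1:**
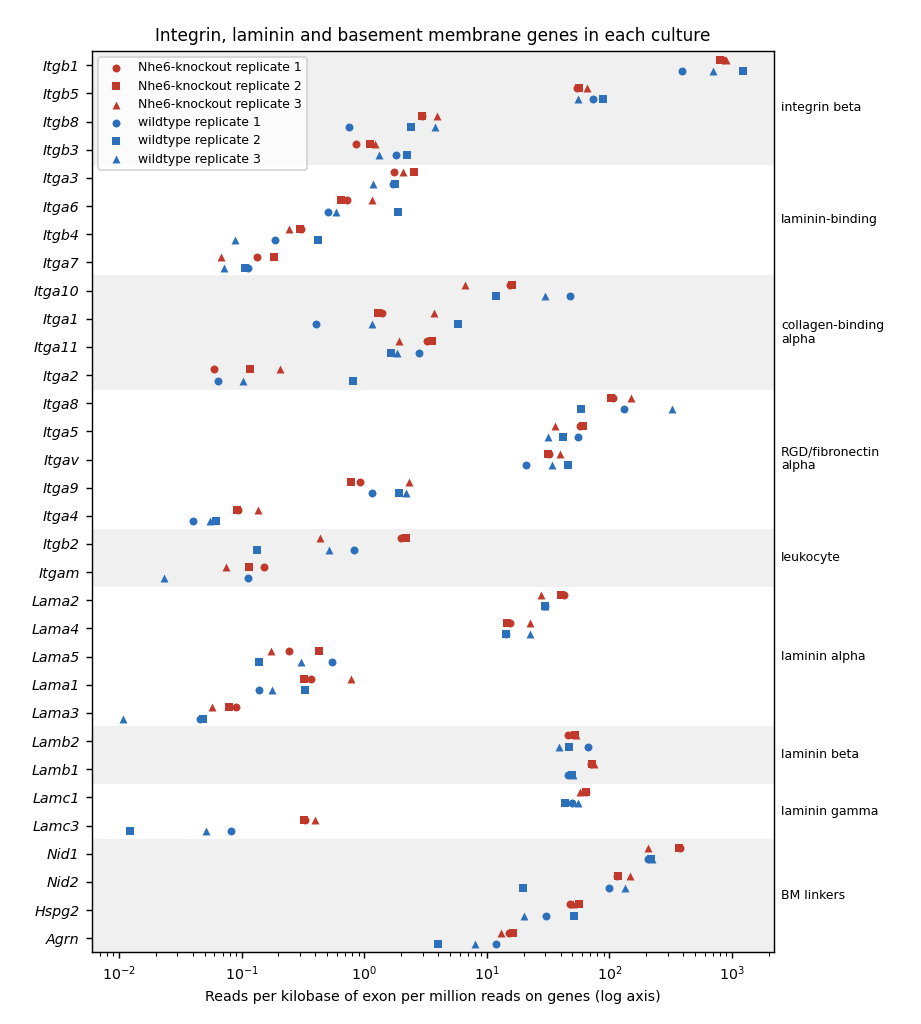
Level of each of the 32 tested members in each culture, in RPKM on a log axis, grouped by role, with red for *Nhe6*-knockout, blue for wildtype and the marker shape for the replicate (*Itgam* in wildtype replicate 2 had 0 reads and has no point). *Itgb1* lies to the right of all other members, and wildtype replicate 2 (blue square) is at an end of the range for 18 of the 32.

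**Figure D2:**
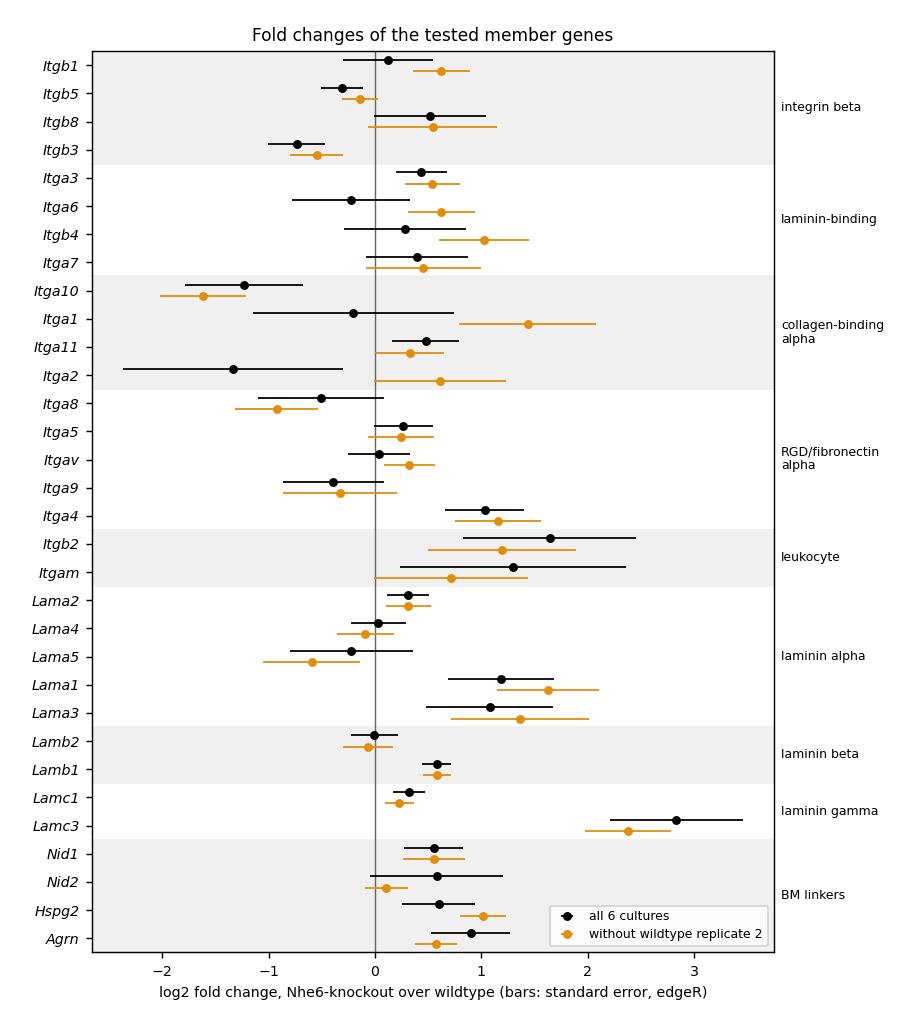
Log2 fold change of each tested member, *Nhe6*-knockout over wildtype, with its edgeR standard error as the bar, in all 6 cultures (black) and without wildtype replicate 2 (orange). With all 6 cultures 22 points lie above 0 and 10 below, and the orange point lies on the other side of 0 from the black one for *Itga1*, *Itga2*, *Itga6* and *Lama4*.

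Up to 250 bases upstream of the start of transcription, less any that GENCODE places inside the gene, are shown for the members whose genotypes did not overlap and which have an entry in RefSeq, with GRCm38.p6 coordinates. Each runs 5′ to 3′ on the strand of the gene, and capitals mark matches to the GC box, searched as GGGCGG and its reverse complement CCGCCC with overlapping matches counted apart.
*Lamb1*, chr12:31265043-31265233, plus strand: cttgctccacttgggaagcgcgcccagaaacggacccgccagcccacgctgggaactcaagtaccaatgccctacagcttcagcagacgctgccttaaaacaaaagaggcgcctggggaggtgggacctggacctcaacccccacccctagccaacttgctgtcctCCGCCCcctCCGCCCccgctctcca
*Agrn*, chr4:156197489-156197738, minus strand, the most upstream of 2 entries: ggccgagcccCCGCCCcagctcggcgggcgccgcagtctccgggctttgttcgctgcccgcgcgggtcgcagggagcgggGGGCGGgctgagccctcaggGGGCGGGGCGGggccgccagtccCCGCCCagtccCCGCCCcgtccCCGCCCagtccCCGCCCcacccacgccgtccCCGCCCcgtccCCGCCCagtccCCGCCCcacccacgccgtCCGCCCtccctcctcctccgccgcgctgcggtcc
*Itga4*, chr2:79255176-79255425, plus strand: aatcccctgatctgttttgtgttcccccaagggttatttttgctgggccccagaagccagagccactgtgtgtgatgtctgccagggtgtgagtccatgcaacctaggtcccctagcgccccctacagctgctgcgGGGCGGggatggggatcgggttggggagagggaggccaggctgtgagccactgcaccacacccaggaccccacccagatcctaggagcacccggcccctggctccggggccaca
GC content was 63.9% for *Lamb1*, 83.6% for *Agrn* and 64% for *Itga4*. The window of *Agrn* held 12 GC box matches, that of *Lamb1* 2 and that of *Itga4* 1. Of all 32851 windows of 250 bases 32.7% held at least 1 match. Of the 29 windows of members 13 did, and these belong to 11 of the 25 members with an entry. Neither TATAAA (12.4% of all windows) nor the AP-1 letters TGACTCA (4.46%) occurred on either strand in the 3 windows shown. A match of letters is a description of the window only.

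Laminin beta 1, encoded by *Lamb1*, is one of the beta chains that pair with most alpha chains. Its normalized counts were 19444, 19824 and 20518 in the knockout and 12590.3, 13463 and 13934 in the wildtype cultures. Every knockout culture was higher than every wildtype culture, and the spread within each genotype was small (19929 ± 544 and 13329 ± 682, mean ± SD, n = 3 each). Between genotypes the log2 fold change was 0.58 ± 0.14 (SE, adjusted p = 0.165), with a 95% interval of 0.25 to 0.91 and an unadjusted edgeR p of 0.00455 that missed the threshold after adjustment. DESeq2 gave the same log2 fold change of 0.58 with an adjusted p of 1.67e-05, and over the 14 alternative fits the adjusted p ran from 1.67e-05 to 0.681. Leaving out any 1 culture kept the log2 fold change between 0.54 and 0.61. With knockout replicates 1 and 2 summed into 1 library the unadjusted edgeR p was 0.0247. The gene, whose upstream window held 2 GC box matches, lies on chromosome 12 from 31265234 to 31329644 of GRCm38.

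Laminin beta 2 (*Lamb2*), the other main beta chain of vessels, had 7692, 8807 and 9024 normalized counts in the knockout and 11210.1, 7834 and 6572 in the wildtype cultures, with a log2 fold change of -0.01 ± 0.22 (SE, adjusted p = 0.992) and a 95% interval of -0.54 to 0.53. The highest and the lowest *Lamb2* values were both wildtype. Per kilobase of exon, *Lamb1* made up 60.8%, 58.0% and 58.2% of the reads of the laminin beta genes in the knockout cultures and 40.8%, 51.3% and 56.5% in the wildtype cultures. The knockout shares lay in a narrow band above all wildtype shares, while the wildtype shares ran from more *Lamb2* than *Lamb1* in replicate 1 to the reverse in the other two. Mean shares were 59.0% ± 1.56 (SD, n = 3) in the knockout and 49.5% ± 8.01 (SD, n = 3) in the wildtype, and the difference of 9.46 percentage points had an exact two-sided permutation p of 0.1, the smallest that 3 against 3 allows. That difference was 5.09 points without wildtype replicate 1, the lowest value among those with 1 culture left out, which reached 13.0 points without wildtype replicate 3. The *Lamb1* share was tested after the data were seen. It is built from the same *Lamb1* reads and is not separate evidence. *Lamb3*, the beta chain of epithelial laminin, had at most 12 reads in a library and was not tested.

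Laminin gamma 1 (*Lamc1*) (chromosome 1 from 153218922 to 153332786) is the gamma chain of nearly all laminins, and per length it averaged 61.9 RPKM in the knockout and 49.6 RPKM in the wildtype cultures. Its normalized counts were 14627, 14672 and 13063 in the knockout and 11393, 9895 and 12657 in the wildtype cultures. The ranges did not overlap but nearly touched, with wildtype replicate 3 just under knockout replicate 3. The log2 fold change was 0.32 ± 0.15 (SE, adjusted p = 0.478). Laminin gamma 3 (*Lamc3*), a gamma chain of restricted expression on chromosome 2 from 31887291 to 31946539, was rare. It had 52, 58 and 71 reads in the knockout libraries and 14, 2 and 8 in the wildtype libraries, or 58.8 ± 7.33 and 8.10 ± 5.82 normalized counts (mean ± SD, n = 3 each). All knockout cultures were well above all wildtype cultures. Its log2 fold change of 2.83 ± 0.63 (SE, adjusted p = 0.144) was the highest of any tested member, with a 95% interval of 1.32 to 4.35 and an unadjusted edgeR p of 0.00342. The adjusted p was 0.00150 with DESeq2 and 0.0425 with edgeR without wildtype replicate 2, where the log2 fold change was 2.38, and it ran from 0.00150 to 0.545 over the 14 alternatives. Per length *Lamc3* stayed far below *Lamc1*, with means of 0.350 RPKM in the knockout and 0.0482 RPKM in the wildtype cultures.

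Among the laminin alpha chains, *Lama2* and *Lama4* carried nearly all reads. Laminin alpha 2, the chain of muscle and nerve basement membranes, had 19156, 18312 and 12493 normalized counts in the knockout and 13405, 13547 and 13333 in the wildtype cultures. Knockout replicates 1 and 2 were above and replicate 3 below a tightly grouped wildtype, and the log2 fold change was 0.31 ± 0.20 (SE, adjusted p = 0.608). Laminin alpha 4, the chain typical of endothelium, had 5119, 4899 and 7477 in the knockout and 4806, 4772 and 7558 in the wildtype cultures, a log2 fold change of 0.03 ± 0.26 (SE, adjusted p = 0.973) and a 95% interval of -0.59 to 0.65. In each genotype replicate 3 was the highest and the others were close together. *Lama4* made up 26.3%, 26.2% and 43.9% of the laminin alpha reads per kilobase in the knockout and 32.1%, 31.9% and 43.0% in the wildtype cultures, a difference of -3.59 percentage points (exact two-sided permutation p = 0.6). The difference changed sign without wildtype replicate 3, when it was 0.0766 points.

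The 3 remaining alpha chains together stayed far below these in every culture. *Lama1*, an early embryonic and epithelial chain, had 97.7, 86.4 and 207 normalized counts in the knockout and 37.1, 87.7 and 47.1 in the wildtype cultures, with knockout replicate 3 the highest and knockout replicate 2 just under wildtype replicate 2. Its log2 fold change was 1.19 ± 0.50 (SE, adjusted p = 0.430), and 1.63 without wildtype replicate 2 (edgeR adjusted p = 0.141, range over the alternatives 0.141 to 0.834). *Lama3*, the alpha chain of epithelial laminin, had 26.5, 23.2 and 17.0 against 13.7, 14.4 and 3.21, which did not overlap, with a log2 fold change of 1.08 ± 0.60 (SE, adjusted p = 0.545). *Lama5*, a chain of mature vessels and epithelia, had 76.4, 135 and 54.9 against 172, 43.3 and 95.2, with full overlap and a log2 fold change of -0.22 ± 0.58 (SE, adjusted p = 0.920). The summed level of the 11 epithelial markers was 99.4 to 862 normalized counts in the knockout and 123 to 1288 in the wildtype cultures, with *Krt5* and *Krt14* at 0 in all 6, and its part in the values of *Lama1*, *Lama3* and *Lama5* was not tested.

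**Figure D3:**
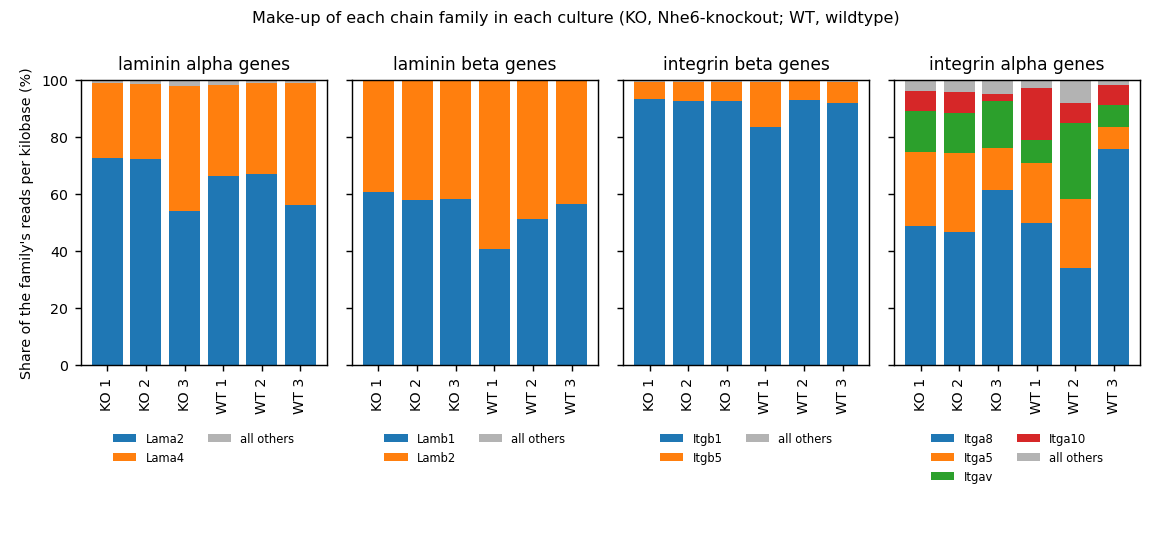
Share (%) of each gene in the summed reads per kilobase of exon of its chain family, 1 bar per culture, for laminin alpha and beta genes and integrin beta and alpha genes. *Lamb1* takes 58.0% to 60.8% of the laminin beta bar in the knockout cultures and 40.8% to 56.5% in the wildtype cultures, while the integrin alpha bars differ as much among the wildtype cultures as between genotypes.

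All 4 linkers of the network had log2 fold changes above 0, with a median of 0.59, and none passed the test. Agrin (*Agrn*), a heparan sulfate proteoglycan that binds laminins and dystroglycan, had 3863, 4173 and 3367 normalized counts in the knockout cultures and 3027, 1016 and 2066 in the wildtype cultures. The gene lies on chromosome 4 from 156165290 to 156197488, downstream of the GC-rich window printed with the other promoters. It was the linker whose genotypes did not overlap, with wildtype replicate 2 the lowest of all. From these values the log2 fold change was 0.90 ± 0.37 (SE, adjusted p = 0.421), and 0.57 without that culture. Nidogen 1 (*Nid1*), which bridges laminin gamma 1 and collagen IV, had 72202, 71415 and 39684 against 39853, 42119 and 43032. Its knockout replicates 1 and 2 were far above the wildtype cultures, and replicate 3 was slightly below all of them. As fitted, the log2 fold change was 0.55 ± 0.28 (SE, adjusted p = 0.498), and 0.42 with those knockout cultures, the closest pair of all, summed into 1 library.

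Nidogen 2 (*Nid2*), a second bridge of the same kind, had 16404, 16759 and 21158 normalized counts in the knockout and 14204, 2798 and 19299.7 in the wildtype cultures. Wildtype replicate 2 was far below every other culture. The log2 fold change was 0.58 ± 0.62 (SE, adjusted p = 0.781) with it and 0.11 without it. Perlecan (*Hspg2*), the large heparan sulfate proteoglycan of basement membranes, showed the opposite dependence on that culture. It had 18807, 22269 and 19991 against 12116, 20263 and 7928, where wildtype replicate 2 was as high as the knockout cultures and the other wildtype cultures were lower. Its log2 fold change was 0.60 ± 0.34 (SE, adjusted p = 0.556), and 1.02 without that culture (edgeR adjusted p = 0.0691, range over the alternatives 0.0691 to 0.984).

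**Figure D4:**
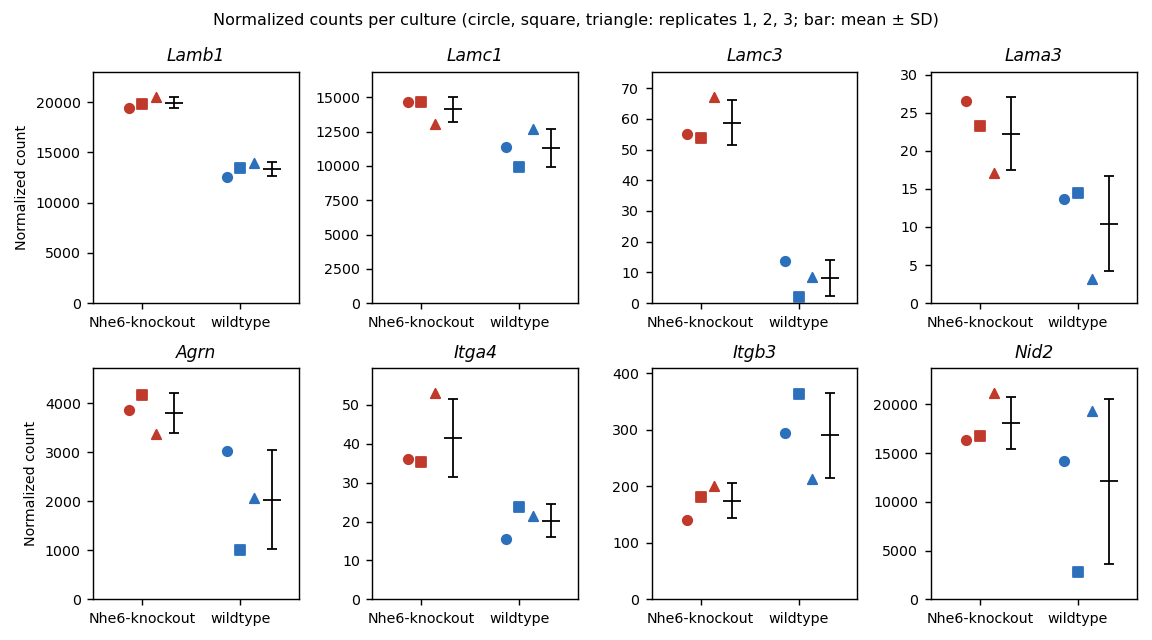
Normalized counts in each culture (circle, square and triangle for replicates 1, 2 and 3) with the mean ± SD of each genotype (n = 3), for the 6 members that lay higher in every knockout culture, for *Itgb3*, which lay lower, and for *Nid2*. The *Lamb1* groups are tight and apart, at 19444 to 20518 and 12590.3 to 13934, and the low wildtype value of *Nid2* is that of replicate 2.

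Integrin beta 1 (*Itgb1*), the partner of the laminin-, collagen- and most fibronectin-binding alpha subunits, had 94659.7, 89562 and 101123 normalized counts in the knockout and 44314, 138879 and 78741 in the wildtype cultures. Its wildtype cultures held both the lowest and the highest value of the 6, with the knockout cultures close together between them. This amounted to a log2 fold change of 0.12 ± 0.42 (SE, adjusted p = 0.941), with a 95% interval of -0.89 to 1.14, and leaving out 1 culture moved it from -0.20 to 0.62. Its share of the integrin beta reads per kilobase was 93.3%, 92.6% and 92.6% against 83.5%, 92.9% and 91.9%. Wildtype replicate 1 alone was low, and the difference of 3.41 percentage points had an exact two-sided permutation p of 0.3.

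The remaining beta subunits pair with the alpha v subunit or with few partners. Integrin beta 3 (*Itgb3*), which forms the vitronectin receptor with alpha v, was the one member lower in every knockout culture and lies on chromosome 11 from 104608000 to 104670476. It had 140.1, 182 and 201 normalized counts in the knockout and 294, 363 and 214 in the wildtype cultures, where knockout replicate 3 and wildtype replicate 3 were close. Between genotypes the log2 fold change was -0.74 ± 0.27 (SE, adjusted p = 0.360), with a 95% interval of -1.38 to -0.09 and an adjusted p of 0.198 to 0.908 over the alternatives. Integrin beta 5 (*Itgb5*), another partner of alpha v, had 5336, 5559.9 and 6432 against 7273, 8754 and 5461, with knockout replicate 3 above wildtype replicate 3 and a log2 fold change of -0.31 ± 0.20 (SE, adjusted p = 0.613). Integrin beta 8 (*Itgb8*), a partner of alpha v that binds latent TGF-beta, had 912, 904 and 1194 against 229.7, 729 and 1144. Wildtype replicate 1 was low and replicate 3 within the knockout range, and the log2 fold change was 0.52 ± 0.53 (SE, adjusted p = 0.767), or 0.09 to 1.06 with 1 culture left out. *Itgb6*, an epithelial partner of alpha v, had at most 7 reads in a library and was not tested.

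*Itga8*, *Itga5* and *Itgav*, of the RGD- and fibronectin-binding class, were the most abundant alpha subunits per length on average in each genotype. Their levels varied as much within as between genotypes. Integrin alpha 8 (*Itga8*), a mesenchymal subunit whose ligands include nephronectin, was the highest per length. It had 21941, 20822 and 30586 normalized counts in the knockout and 26564, 11918 and 65880.5 in the wildtype cultures, so that the lowest and highest cultures were both wildtype, and its log2 fold change was -0.51 ± 0.59 (SE, adjusted p = 0.797). On the opposite strand *Itga8* shares 372 exon bases with *E030013I19Rik*, which had at most 1117 reads in a library. Integrin alpha 5 (*Itga5*), the main fibronectin receptor subunit, had 7819, 8318 and 4919 against 7484, 5693 and 4331 and a log2 fold change of 0.27 ± 0.28 (SE, adjusted p = 0.775), or 0.08 to 0.48 with 1 culture left out. Replicate 3 was the lowest in each genotype. Integrin alpha v (*Itgav*) had 9493, 9319 and 11759.6 against 6167, 13559.7 and 10051, with a log2 fold change of 0.04 ± 0.29 (SE, adjusted p = 0.970) and a 95% interval of -0.67 to 0.75. Its wildtype cultures enclosed the knockout cultures.

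Both less abundant subunits of this class showed different patterns. Integrin alpha 4 (*Itga4*), the fibronectin and VCAM-1 receptor subunit of leukocytes and some mesenchymal cells, had 36.1, 35.3 and 53.0 normalized counts in the knockout and 15.6, 23.7 and 21.4 in the wildtype cultures. The gene lies on chromosome 2 from 79255426 to 79333123. Its genotypes did not overlap, with a log2 fold change of 1.03 ± 0.37 (SE, adjusted p = 0.360) and an adjusted p of 0.198 to 0.834 over the alternatives. *Itga4* shares 1124 exon bases with *Cerkl* on the opposite strand, which had at most 136 reads in a library, and since the strand setting of the counting is not given in the sources used here, the level of *Itga4* is uncertain. Integrin alpha 9 (*Itga9*), whose ligands include tenascin-C, had 196, 164 and 490.1 against 246, 405 and 466 and a log2 fold change of -0.39 ± 0.47 (SE, adjusted p = 0.808), or -1.05 to -0.12 with 1 culture left out. Its lowest values were knockout replicates 1 and 2 and its highest was knockout replicate 3.

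The 4 laminin-binding subunits were all low, and none passed the test. Integrin alpha 3 (*Itga3*) had 276, 402 and 328 normalized counts in the knockout and 273, 284 and 187 in the wildtype cultures, with a slight overlap and a log2 fold change of 0.44 ± 0.24 (SE, adjusted p = 0.546). Integrin alpha 6 (*Itga6*) had 180.5, 163 and 290.5 against 126, 468 and 148. Wildtype replicate 2 was the highest of all and the other wildtype cultures were the lowest. The log2 fold change of *Itga6* was -0.23 ± 0.56 (SE, adjusted p = 0.912) with that culture and 0.62 without it. Integrin beta 4 (*Itgb4*), the partner of alpha 6 in hemidesmosomes, had 59.4, 57.6 and 47.3 against 36.2, 81.5 and 17.1, with the same culture the highest and a log2 fold change of 0.28 ± 0.57 (SE, adjusted p = 0.890). Integrin alpha 7 (*Itga7*), the laminin receptor subunit of muscle, had 29.7, 40.9 and 15.1 against 25.4, 23.7 and 16.0, which overlapped, and a log2 fold change of 0.39 ± 0.48 (SE, adjusted p = 0.808).

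Of the 4 collagen-binding alpha subunits, *Itga10* was the most abundant and had the lowest log2 fold change without wildtype replicate 2. It had 2223, 2282 and 952 normalized counts in the knockout and 6878, 1707 and 4256 in the wildtype cultures. Wildtype replicate 2 lay between the knockout cultures, and the other wildtype cultures were above all of them. The log2 fold change of *Itga10*, a subunit best known from cartilage, was -1.23 ± 0.56 (SE, adjusted p = 0.455), and -1.62 without that culture (edgeR adjusted p = 0.0990, range over the alternatives 0.0990 to 0.895). *Itga1*, the collagen receptor subunit of mesenchymal and microvascular cells, had 721, 663 and 1903 against 209, 2979.9 and 599, where wildtype replicate 2 exceeded every other culture. Its log2 fold change was -0.20 ± 0.95 (SE, adjusted p = 0.955) with that culture and 1.44 without it (edgeR adjusted p = 0.297, range over the alternatives 0.297 to 0.999). *Itga2*, the platelet and epithelial collagen receptor subunit, showed the same dependence at a far lower level, with 11.7, 23.2 and 40.7 against 12.7, 159 and 20.3 and a log2 fold change of -1.34 ± 1.03 (SE, adjusted p = 0.676). Its value without wildtype replicate 2 was 0.61. *Itga11*, a subunit of fibroblasts, had 458, 505 and 271 against 393, 233 and 261, which overlapped, and a log2 fold change of 0.48 ± 0.31 (SE, adjusted p = 0.626).

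Leukocyte integrins were rare and varied widely within each genotype. *Itgb2*, the common beta subunit of leukocyte integrins, had 168, 186 and 36.9 normalized counts in the knockout and 69.4, 11.3 and 43.8 in the wildtype cultures. Knockout replicates 1 and 2 were high, knockout replicate 3 was within the wildtype range, and the log2 fold change was 1.64 ± 0.81 (SE, adjusted p = 0.495). *Itgam*, the alpha M subunit of macrophages and neutrophils, had 21.2, 15.8 and 10.4 against 15.6, 0 and 3.21 and a log2 fold change of 1.30 ± 1.06 (SE, adjusted p = 0.699). *Itgal*, *Itgax* and *Itgb7*, further leukocyte subunits, had at most 7, 3 and 14 reads in a library and were not tested. The summed level of 15 leukocyte and macrophage markers was 3869.5, 4275 and 1659.7 normalized counts in the knockout cultures and 4017, 148 and 2088 in the wildtype cultures. In each genotype the culture with the lowest marker sum also had the lowest *Itgb2*. Of the 13 markers tested, 12 had a log2 fold change above 0, against 48.1% of all genes. Wildtype replicate 2 was the lowest culture for all 13. Their median log2 fold change was 0.70, and it was 0.19 over the 14 markers tested without that culture. The part of such cells in the values of *Itgb2*, *Itgam* and *Itga4* was not tested.

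The remaining marker lists were set beside the laminins and linkers in the same way. The 10 fibroblast markers summed to 229798 to 254979 normalized counts in the knockout and 224335, 292964 and 188549 in the wildtype cultures. For the 12 mural cell markers the sums were 22151 to 24458 in the knockout and 16341, 35299.9 and 18490.1 in the wildtype cultures. In both lists the sums overlapped between genotypes through wildtype replicate 2 alone. Without it, a comparison added after the data were seen, every knockout sum was the higher. *Col1a2* was the largest part of each fibroblast sum, and the order of these sums leans on that gene. Its normalized counts were 138944, 145818 and 129944 in the knockout and 128049, 186223 and 87306 in the wildtype cultures. In wildtype replicate 2 the largest part of the mural sum was *Acta2*, at 16267. *Pdgfrb*, the largest part in every other culture, was at its lowest there, at 7789.6. By gene, 3 of 10 tested fibroblast markers and 5 of 11 tested mural markers lay higher in every knockout culture, against 10.3% of all genes. Lower in every knockout culture were 1 fibroblast marker, *Twist1*, and 0 mural markers, against 9.57%. Without wildtype replicate 2, 5 fibroblast markers lay higher and 2 lower, and 7 mural markers higher and 0 lower. The shares of all genes were then 19.3% and 19.1%. DESeq2 called *Dcn*, *Fap* and *Notch3* higher and 0 markers of these lists lower, against 2.85% and 1.83% of all genes. The 11 skeletal muscle markers, 4 of them at 0 in all libraries, summed to 80.7 to 109.6 in the knockout and 237 to 726 in the wildtype cultures, lower without overlap. *Trdn* and *Mybpc1* made up most of each wildtype sum. They were the 2 that DESeq2 called lower, with 1.83% of all genes called lower. By gene, *Mybpc1* alone lay lower in every knockout culture, and the tested *Tnnt3* and *Mylpf* overlapped between genotypes and were not called. The 15 endothelial markers summed to 16094 to 24725 and 11119 to 22569, and the 12 glial and melanocyte markers to 1083 to 1204 and 1088 to 1742, both with overlap. *Emcn* was the largest part of the endothelial sum in every culture but wildtype replicate 2. By gene, 2 of 9 tested endothelial markers, *Cdh5* and *Flt1*, lay lower in every knockout culture and 0 higher, against 9.57% and 10.3% of all genes. DESeq2 called the same 2 lower and 0 higher, against 1.83% and 2.85% of all genes. Lastly, 16 cell cycle genes summed to 8490.4 to 15276 against 2689 to 4012 without overlap. All 16 had a log2 fold change above 0 (48.1% of all genes did), and 0 passed edgeR's adjusted threshold. At an unadjusted edgeR p under 0.05, 15 were higher, against 6.14% of all genes. DESeq2 called 13 higher, against 2.85% of all genes. The cell cycle sum, and without wildtype replicate 2 the fibroblast and mural sums, had the same order of genotypes as *Lamb1*, *Lamc1*, *Lamc3*, *Lama3*, *Agrn* and *Itga4*, and the part of these lists in their values was not tested.

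A companion list of 89 further genes of the same pathway was read from the same fit, of which 83 were tested. edgeR called 0 of them, against 0.0668% of all genes. At an unadjusted edgeR p under 0.05, 8 were higher and 5 lower, against 6.14% and 5.71% of all genes. DESeq2 called 5 higher (*Frem1*, *Tnc*, *Col7a1*, *Fblim1* and *Tns3*) and 2 lower (*Cd151* and *Col4a6*). With DESeq2 4.69% of all genes were called, 2.85% higher and 1.83% lower. The genotypes did not overlap for 16 (19.3%, against 19.9% of all genes). Of these, 11 were higher (13.3% of those tested, against 10.3% of all genes) and 5 lower (against 9.57%). Without wildtype replicate 2 edgeR, with 2.88% of all genes called, called 3, *Fblim1* and *Actn1* as higher and *Cd151* as lower. The median log2 fold change was 0.08, against 0.32 for the members.

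Among the 31 tested linkers and signalling partners of integrins, the tetraspanin *Cd151*, which associates with laminin-binding integrins, had the smallest p-value, with 2943, 2884 and 3261 normalized counts in the knockout and 5054, 5627 and 4849 in the wildtype cultures, without overlap. The log2 fold change was -0.77 ± 0.12 (SE, adjusted p = 0.0952), with an adjusted p of 4.95e-06 by DESeq2, 0.0388 by edgeR without wildtype replicate 2 and 4.95e-06 to 0.473 over all alternatives. *Fblim1*, which binds filamin and kindlins at adhesion sites, had 1435, 1422 and 1597 against 745, 1074 and 887, again without overlap, and a log2 fold change of 0.72 ± 0.16 (SE, adjusted p = 0.154). For *Fblim1* the adjusted p was 0.0139 by DESeq2, 0.0390 by edgeR without wildtype replicate 2 and 0.0139 to 0.588 over all alternatives. *Parvb*, an actin-binding partner of integrin-linked kinase, had 933, 865 and 1353 against 506, 130.0 and 512 and a log2 fold change of 1.46 ± 0.51 (SE, adjusted p = 0.349). *Tns3*, a tensin that binds integrin beta tails, had 8102, 7999 and 10338 against 5845, 5143 and 6428, a log2 fold change of 0.60 ± 0.16 (SE, adjusted p = 0.226) and a DESeq2 adjusted p of 0.0323 (range over the alternatives 0.0323 to 0.656). *Actn1*, an actinin that cross-links actin, had 2696, 2739 and 2754 against 1036, 4604 and 1144, where wildtype replicate 2 was the highest, and a log2 fold change of 0.27 ± 0.58 (SE, adjusted p = 0.897). Without wildtype replicate 2 that of *Actn1* was 1.32 (edgeR adjusted p = 0.0138, range over the alternatives 0.0138 to 0.999).

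Of the 11 tested laminin receptors outside the integrins, 0 were called by edgeR or DESeq2, against 0.0668% and 4.69% of all genes. An unadjusted edgeR p under 0.05 was found for 1, against 11.8% of all genes. The syndecans, transmembrane heparan sulfate proteoglycans, had log2 fold changes of 0.51 ± 0.16 (SE, adjusted p = 0.296) for *Sdc3*, -0.51 ± 0.23 (SE, adjusted p = 0.463) for *Sdc2* and 0.45 ± 0.30 (SE, adjusted p = 0.625) for *Sdc1*. *Rpsa*, a ribosomal protein also described as a laminin receptor, had one of 0.37 ± 0.21 (SE, adjusted p = 0.542).

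The integrin ligands differed in direction. Tenascin-C (*Tnc*), an adhesion-modulating glycoprotein and a ligand of integrin alpha 9, had 15868, 16441 and 48292 normalized counts in the knockout and 4166, 1602 and 6174 in the wildtype cultures. Every knockout culture was above every wildtype culture, and the log2 fold change was 2.75 ± 0.66 (SE, adjusted p = 0.175), with a DESeq2 adjusted p of 1.99e-04 (range over the alternatives 1.99e-04 to 0.473). Fibronectin (*Fn1*) had 34778, 35746 and 52232 against 44069.9, 102496 and 88449.5, where knockout replicate 3 was above wildtype replicate 1, and a log2 fold change of -0.94 ± 0.37 (SE, adjusted p = 0.399). *Npnt*, nephronectin, had 2817, 2838 and 7688 against 2385, 813 and 3916 and a log2 fold change of 0.91 ± 0.64 (SE, adjusted p = 0.651), or 0.25 to 1.47 with 1 culture left out. For *Edil3*, an RGD protein, the log2 fold change was -1.77 ± 0.83 (SE, adjusted p = 0.471) with wildtype replicate 2 and -0.18 without it.

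Of the 27 tested further basement membrane genes, *Frem1*, a matrix protein of the Fraser complex, had 933, 931 and 652 normalized counts in the knockout and 19.6, 71.2 and 112 in the wildtype cultures. The groups were far apart, with a log2 fold change of 3.63 ± 0.60 (SE, adjusted p = 0.0952), a DESeq2 adjusted p of 3.07e-08 and a range of 3.07e-08 to 0.471 over the alternatives. *Col7a1*, the collagen of anchoring fibrils, had 427, 539.7 and 517 against 196, 137 and 74.9 and a log2 fold change of 1.86 ± 0.36 (SE, adjusted p = 0.114). Again the genotypes did not overlap, and DESeq2 gave an adjusted p of 1.26e-04 (range over the alternatives 1.26e-04 to 0.471). *Egfl6*, a basement membrane ligand of integrin alpha 8, depended on 1 culture. It had 89.2, 80.8 and 149.5 against 9.78, 9375 and 28.9, and its log2 fold change was -4.88 ± 2.33 (SE, adjusted p = 0.477) with wildtype replicate 2 and 2.46 without it. *Ntn1*, a netrin, likewise had -1.71 ± 0.99 (SE, adjusted p = 0.564) with that culture and 0.33 without it. The collagen IV chains are named here after their values were seen. *Col4a6*, a minor chain, had 105, 172 and 93.7 against 418, 324 and 191, without overlap, and a log2 fold change of -1.33 ± 0.38 (SE, adjusted p = 0.250), with a DESeq2 adjusted p of 0.0337 (range over the alternatives 0.0337 to 0.751). The main chains *Col4a1* and *Col4a2* had log2 fold changes of 0.35 ± 0.58 (SE, adjusted p = 0.866) and 0.25 ± 0.50 (SE, adjusted p = 0.890).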

How the data were processed

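Poly(A)-enriched RNA of 6 cultures, 3 per genotype, was sequenced from stranded libraries. Per the labels and the submitters' processing notes, the authors used bcl2fastq 2.20.0.422, STAR 2.7.7a, HTSeq 0.13.5 and DESeq2 1.26.0 with build mm10, and deposited raw counts per gene. The strand setting is not given in the sources used here. The 5 summary lines of the table (22.2% of its reads) name no gene and were left out. Counts were tested with edgeR 4.0.16 (R 4.3.3): TMM scaling, filterByExpr with a minimum count of 10, quasi-likelihood fit with genotype as the only term, and Benjamini-Hochberg adjustment over 13479 genes with a threshold of 0.05. The steps were tested on simulated data. Single shares were tested by two-sided exact permutation (SciPy 1.17.1), that of *Lamb1* after the data were seen. Exon lengths (union of exons) and positions came from GENCODE M21, and promoter windows from RefSeq. DESeq2 1.42.0, limma 3.58.1 (voom), other filters and scalings, a replicate block, knockout replicates 1 and 2 summed, and each library left out in turn were the 14 alternatives.

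The members and the companion and marker lists were chosen with earlier results of these data known. Every tested member was named. Companion genes were named when past the threshold with or without wildtype replicate 2, or when among the 4 largest absolute log2 fold changes of a list at a mean of at least 100 normalized counts. Genes named beyond this rule are stated as such. Counting error alone does not describe the spread between cultures, which the tests use. The check of the targeted gene is not reported here.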

Additional observations from a re-analysis of the deposited data

How the results depend on the processing

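Depth limits mainly the rare members, such as *Lamc3*, *Itga4* and *Lama3*, and 5 members fell below the filter. Genes past the threshold numbered 9, with 627 by DESeq2's Wald test, 21 with a filter of 1 count, 21 with at least 10 counts in every library, 2 with a replicate block and 1 with knockout replicates 1 and 2 summed. Leaving out 1 library gave 0 to 395, the latter without wildtype replicate 2. Other scalings and voom gave 9 to 13. Members past the threshold numbered 0, with 2 by DESeq2, 0 with the replicate block and 0 to 1 with a library left out (*Lamc3* without wildtype replicate 2). Companion genes numbered 0, with 7 by DESeq2, 0 with the block and 0 to 3 with a library left out, the latter again without wildtype replicate 2. The replicate numbers did not pair the cultures: deviations of same-numbered cultures from their genotype means correlated at 0.207, -0.189 and 0.111, and 2 of 6 cultures correlated best with their own number.

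The log2 fold change kept its direction for 22 of the 32 tested members in every alternative, and for 29 in every alternative that kept all 6 cultures. With all cultures it changed sign for *Itga1* (0.45 by voom, 0.58 with the block, 0.0355 with knockout replicates 1 and 2 summed), *Itga6* (0.0118 with the block), *Lamb2* (0.0229 with upper quartile scaling, 0.0293 by voom, 0.0290 with the block, 0.0178 summed) and, among companions, *Egfl6* (0.56 with the block). With a library left out the ranges that cross 0 were -0.88 to 1.44 for *Itga1*, -1.87 to 0.61 for *Itga2*, -0.55 to 0.62 for *Itga6*, -0.93 to 0.34 for *Itga8*, -0.22 to 0.32 for *Itgav*, -0.20 to 0.62 for *Itgb1*, -0.11 to 1.03 for *Itgb4*, -0.20 to 0.28 for *Lama4*, -0.66 to 0.35 for *Lama5*, -0.17 to 0.23 for *Lamb2*, -0.0804 to 1.32 for *Actn1*, -5.47 to 2.46 for *Egfl6* and -2.19 to 0.33 for *Ntn1*. The *Lama4* share difference was -3.59 points, -3.04 without length scaling and -9.47 to 0.0766 with a library left out. That of *Itgb1* was 3.41 points, 2.98 without length scaling and 0.437 to 5.14 with a library left out. The causes of these changes were not tested.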
